A study of Mus musculus with 6 samples.

Results

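The inflammasome, pyroptosis and necroptosis machinery was followed in RAW264.7 cells through 10 genes: Nlrp3, Pycard, Casp1, Casp4, Casp8, Gsdmd, Ripk1, Ripk3, Mlkl and Ninj1. They were chosen by name for their roles, with no threshold on their values, but with earlier results of these data known. All 10 were found among the 28836 genes of the deposited table. RAW264.7 is a mouse macrophage-like cell line that was derived from a tumour induced by a leukaemia virus. The design compares 3 untreated libraries with 3 libraries of GB2-treated cells. GB2 is a prodrug in which MSA-2, which activates the innate immune adaptor STING, is linked to artesunate, used in the study against the receptor TREM2, by a disulfide bond that glutathione cleaves. The labels give neither a dose nor a time, whereas the study states both for its co-culture experiment. According to the study, the macrophages grew in the lower chamber of a transwell under tumour cells, and whether that holds for the untreated cells is unclear. Both groups are the same single cell line, with no genotype or second agent named in the labels.

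Inflammasomes are protein platforms on which sensors such as NLRP3 recruit the adaptor ASC, the product of Pycard, and activate caspase-1. Caspase-1, and caspase-11 encoded by Casp4 in the mouse, cut gasdermin D, whose released fragment forms pores in the plasma membrane, and NINJ1 then drives the rupture of the dying cell. Necroptosis runs through the kinases RIPK1 and RIPK3, which meet through a shared interaction motif, and RIPK3 phosphorylates MLKL, which permeabilises the membrane. Caspase-8 cleaves RIPK1 and RIPK3 and so restrains this route. RAW264.7 cells are known in the field for lacking ASC. All of these proteins are controlled by cleavage, phosphorylation or assembly, which RNA levels do not show.

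Levels are given as FPKM, the fragments of a gene relative to its length and to the library total. Values are listed per library in the order of replicates 1, 2 and 3. The length assigned to each gene is not stated, and comparisons of levels between genes depend on it. Changes are log2 differences of GB2-treated minus untreated libraries with their standard error (SE), fitted with edgeR to counts of 17124 genes that passed the expression filter, with n = 3 per group throughout. Calls needed a false discovery rate (FDR) below 0.05 over all tested genes together with a change of at least 2-fold in either direction. A gene past the FDR threshold with a smaller change is described as shifted. Library totals lay between 62660734 and 77337345 counts. All 10 markers of macrophages were detected in every library. Their sum was 15700 to 16180 FPKM in untreated and 7858 to 9077 FPKM in GB2-treated libraries. Most of it was Lyz2, with means of 13128 and 6552 FPKM. Adgre1, Csf1r, Cd68, Cd14 and Tyrobp were lower too, without overlap between the groups. Itgam was higher (means of 157 FPKM untreated and 202 FPKM treated), and Ptprc, Fcgr1 and Mertk overlapped. Mertk was barely detected, at 0.13, 0.09 and 0.09 FPKM untreated and 0.11, 0.44 and 0.44 FPKM treated. GB2-treated replicates 2 and 3 stood apart. Their 10 hepatocyte markers summed to 591 and 573 FPKM, against 2.62 to 3.05 FPKM in untreated libraries and 5.44 FPKM in GB2-treated replicate 1. Muscle markers summed to 151 and 216 FPKM and erythroid markers to 114 and 115 FPKM in the same libraries, against at most 0.19 and 3.43 FPKM in the other 4. In RNA from whole cultures, fewer cells of a kind and less RNA per cell cannot be told apart.

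The machinery did not move as 1 block. Of the 9 members that passed the filter, 2 were called higher in GB2-treated cells, Ripk3 and Mlkl, and 0 were called lower, while 21.2% of all tested genes were called in either direction, 13.4% higher and 7.73% lower. In either direction, 2 of 9 is at the background share. At an unadjusted p below 0.05, 3 members were lower, 0 of them by 2-fold, and the DESeq2 Wald test and both limma tests also called 2 higher and 0 lower. By the FDR alone 7 of the 9 differed, with 4 higher (Nlrp3, Casp8, Ripk3 and Mlkl) and 3 lower (Casp1, Casp4 and Ripk1), against 56.4% of all tested genes, 26.8% higher and 29.6% lower. The FPKM ranges of the groups did not overlap for 8 of the 9, against 61.9% of all tested genes. The median change of the 9 was 0.00 on the log2 scale, beside 0.01 for all tested genes. Gsdmd and Ninj1 did not pass the FDR threshold, and Pycard was left out of the fit by the expression filter.

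**Figure D1:**
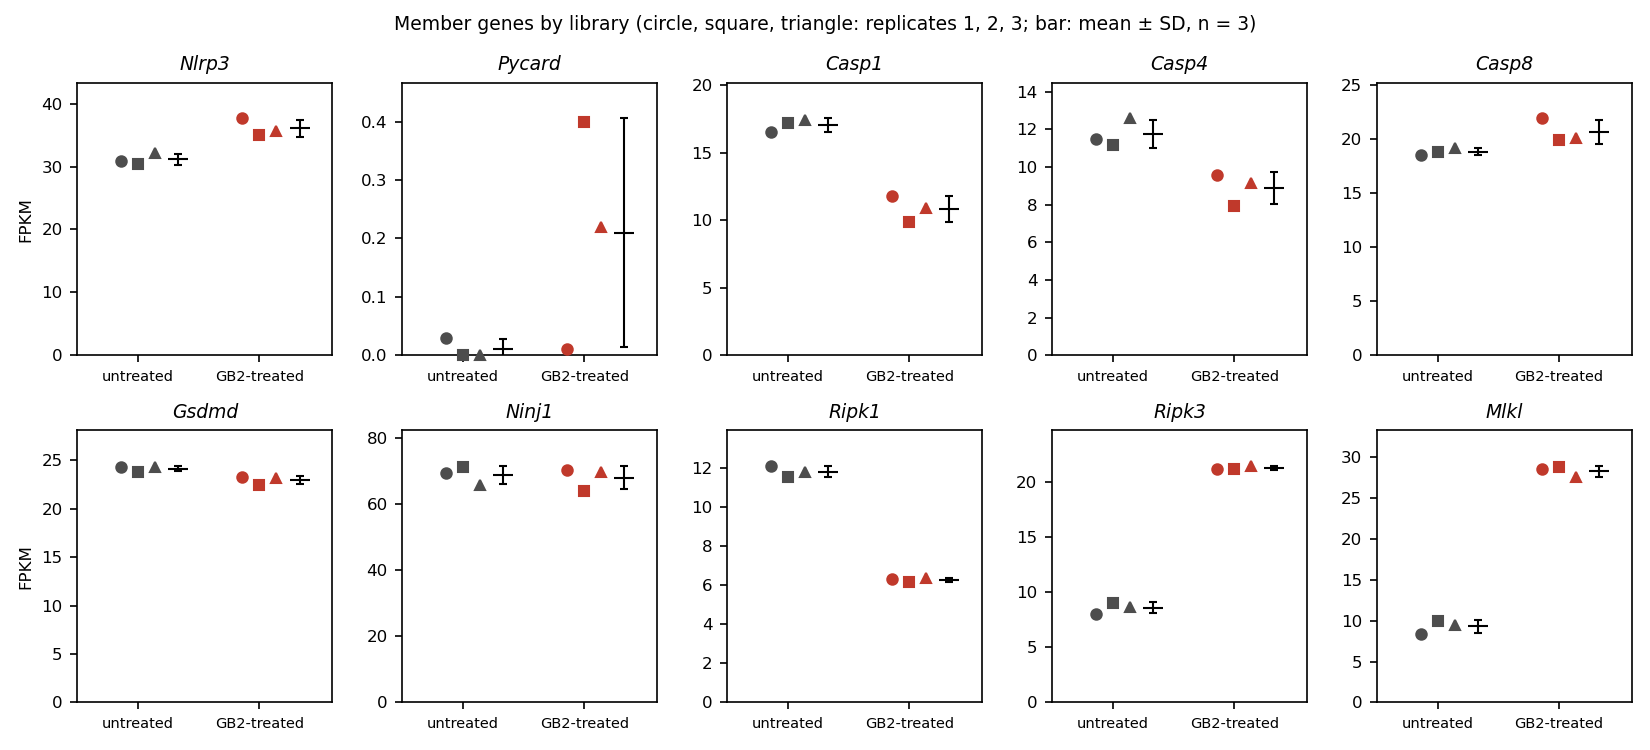
FPKM (vertical axes, each from 0) of the 10 member genes in 3 untreated and 3 GB2-treated libraries, with points for replicates and bars for the mean ± SD. Mlkl lay at 8.41 to 9.97 FPKM in untreated and 27.55 to 28.78 FPKM in GB2-treated libraries, whereas Ninj1 overlapped between the groups and Pycard stayed at or below 0.40 FPKM.

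Transcripts of the necroptosis kinases moved in opposite directions. Mlkl, the executioner at the membrane (ENSMUSG00000012519, chromosome 8, 111311797 to 111338177, minus strand, mm10), was at 8.41, 9.97 and 9.49 FPKM in untreated cells and at 28.57, 28.78 and 27.55 FPKM in GB2-treated cells. Every treated library lay above every untreated one. The means were 9.29 ± 0.799 and 28.3 ± 0.658 FPKM (SD), and the fitted change was 1.62 ± 0.07 (SE), a 3.08-fold rise (95% interval of the log2 change 1.46 to 1.79, edgeR FDR 1.49e-06). Ripk3, the kinase that phosphorylates MLKL (ENSMUSG00000022221, chromosome 14, 55784995 to 55788865, minus strand), was at 8.05, 9.04 and 8.63 FPKM in untreated and at 21.15, 21.18 and 21.46 FPKM in GB2-treated cells. The treated libraries were again all higher, and they spread less than the untreated ones. The means were 8.57 ± 0.497 and 21.3 ± 0.171 FPKM (SD), and the rise was 2.51-fold (log2 1.33 ± 0.06 SE, 95% interval 1.20 to 1.46, edgeR FDR 1.29e-06). Both calls held under all 14 alternative settings, with log2 changes of 1.51 to 1.70 for Mlkl and 1.22 to 1.39 for Ripk3.

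Ripk1, the kinase that receives signals from death receptors and joins RIPK3 in the necrosome (ENSMUSG00000021408, chromosome 13, 34002363 to 34033677, plus strand), was lower. It measured 12.13, 11.55 and 11.80 FPKM in untreated and 6.34, 6.18 and 6.37 FPKM in GB2-treated cells. The groups were far apart and each was tight, with means of 11.8 ± 0.291 and 6.30 ± 0.102 FPKM (SD). The change was -0.89 ± 0.04 (SE), with a 95% interval of -0.98 to -0.81 and an edgeR FDR of 1.08e-06, so that the whole interval fell short of 2-fold. The FDR threshold was passed under all 14 alternatives and the 2-fold threshold under 0. Ripk1 shares 2.89% of its exonic bases with Serpinb6a on the other strand and 6.12% with the pseudogene Gm17084 on its own strand, and its counts are uncertain to that extent.

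Taken per library in FPKM, the order of Ripk3 and Ripk1 was reversed. The ratio of Ripk3 to Ripk1 in FPKM was 0.664, 0.783 and 0.731 in untreated libraries and 3.34, 3.43 and 3.37 in GB2-treated libraries. By FPKM, Ripk3 was thus the lower of the pair in each untreated library and the higher in each treated library. In counts, which are not divided by length, Ripk1 stayed above Ripk3 in every library. In GB2-treated libraries Ripk1 had 4011, 3445 and 3505 counts, against 3677, 3249 and 3243 for Ripk3. Annotated exons span 8344 bases for Ripk1 and 2292 for Ripk3. The order of the pair, unlike the rise of the ratio, therefore depends on the lengths used. The mean ratio went from 0.726 ± 0.0597 to 3.38 ± 0.0462 (SD). The ratio of Mlkl to Ripk1 was 0.787 ± 0.0863 in untreated and 4.50 ± 0.166 in GB2-treated libraries. The ratio of Mlkl to Ripk3 differed less, at 1.08 ± 0.0327 against 1.33 ± 0.0412. The ratio of Ripk3 to Casp8, the caspase that cleaves RIPK3, was 0.456 ± 0.0227 against 1.03 ± 0.0588. For all 4 ratios an exact permutation test (two-sided) gave p = 0.1, the smallest value that 3 against 3 libraries allow. The ratio of Gsdmd to Ninj1 was 0.351 ± 0.0177 against 0.338 ± 0.0114, with overlapping groups (exact permutation p = 0.3). These are 5 of the 6 ratios computed, all chosen after the values had been seen, and the sixth, of Nlrp3 to Casp1, is given with Casp1.

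**Figure D2:**
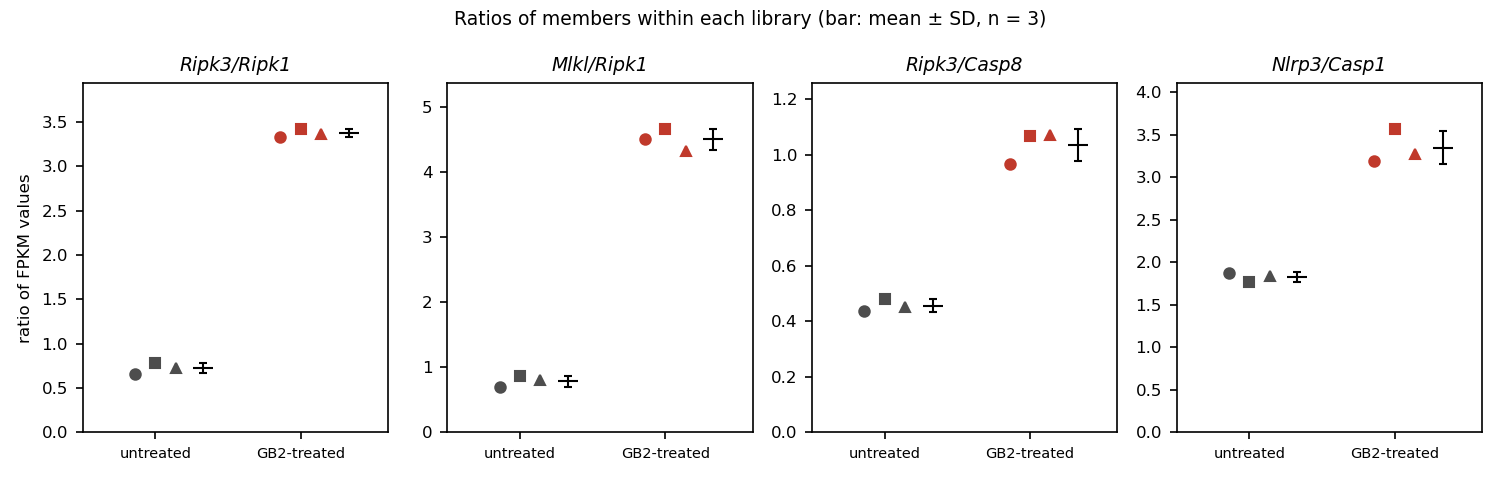
Ratios of FPKM values of 2 members within each library (vertical axes, each from 0), with points for replicates 1 to 3 and bars for the mean ± SD, n = 3. Ripk3/Ripk1 lay at 0.664 to 0.783 in untreated and at 3.34 to 3.43 in GB2-treated libraries, and the groups were separate in all 4 panels.

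The order of levels in FPKM, which depends on the length assigned to each gene, changed with these genes. In untreated cells the order from high to low was Ninj1, Nlrp3, Gsdmd, Casp8, Casp1, Ripk1, Casp4, Mlkl, Ripk3 and Pycard, in which Ripk1 overlapped Casp4 and Mlkl overlapped Ripk3 between libraries. In GB2-treated cells it was Ninj1, Nlrp3, Mlkl, Gsdmd, Ripk3, Casp8, Casp1, Casp4, Ripk1 and Pycard, in which only Ripk3 and Casp8 overlapped as neighbours. Mlkl exceeded 58.8% of the 11009 genes at 1 FPKM or more in untreated cells and 86.7% of 11493 such genes in treated cells. Ripk3 went from 56.2% to 82.4% on the same scale, and Ripk1 from 66% to 50.2%. Ninj1 stayed in place, above 94.4% and 94.6% of those genes.

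The 250 bases before the annotated start are shown for the 2 members called higher and for the 2 with the largest shifts downward, since these 4 genes carry the contrast among the members. The sequences are from RefSeq (GRCm38.p6), written 5′ to 3′ on the strand of the gene. Capitals mark matches, on either strand, to GGGNNNNNCC (a kappaB-type motif, bound by NF-kappaB), ACGTG (the core of the hypoxia response element), GAAANNGAAA (an interferon-stimulated response element) or TTCNNNGAA (bound by STAT factors). Ripk1 has a second annotated start, and the upstream-most window is shown.
Mlkl, chr8:111338206-111338455, minus strand: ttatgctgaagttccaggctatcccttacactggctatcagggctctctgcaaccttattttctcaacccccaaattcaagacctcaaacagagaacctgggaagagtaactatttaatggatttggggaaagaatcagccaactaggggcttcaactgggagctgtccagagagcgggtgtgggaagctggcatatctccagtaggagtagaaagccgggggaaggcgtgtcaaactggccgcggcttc
Ripk3, chr14:55788858-55789107, minus strand: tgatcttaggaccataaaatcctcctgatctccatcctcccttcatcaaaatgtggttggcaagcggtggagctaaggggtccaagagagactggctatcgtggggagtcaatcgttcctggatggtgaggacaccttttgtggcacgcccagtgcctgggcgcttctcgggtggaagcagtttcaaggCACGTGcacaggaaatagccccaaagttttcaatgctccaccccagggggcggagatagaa
Ripk1, chr13:34002113-34002362, plus strand: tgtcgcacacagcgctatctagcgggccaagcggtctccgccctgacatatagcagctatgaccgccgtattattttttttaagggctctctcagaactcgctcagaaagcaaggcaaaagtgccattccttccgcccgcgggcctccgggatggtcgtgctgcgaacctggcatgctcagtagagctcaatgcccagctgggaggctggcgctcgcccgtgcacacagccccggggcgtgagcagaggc
Casp1, chr9:5298267-5298516, plus strand: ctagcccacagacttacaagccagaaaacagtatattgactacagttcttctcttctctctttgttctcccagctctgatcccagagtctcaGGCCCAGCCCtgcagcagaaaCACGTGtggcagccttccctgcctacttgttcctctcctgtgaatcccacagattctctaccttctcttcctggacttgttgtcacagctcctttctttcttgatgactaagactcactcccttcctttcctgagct

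The sequence before Mlkl held none of the 4 motifs in either orientation. Before Ripk3, ACGTG was matched on both strands by the palindrome cacgtg that begins 61 bases before the start. Casp1, which shifted in the other direction, held the same palindrome 137 bases before its start and a kappaB-type match at 158 bases. The first window of Ripk1 held none, whereas its second window held 1 kappaB-type, 1 interferon-type and 2 STAT-type matches, of which the interferon-type match overlapped one of the STAT type. Windows of 300 bases, reaching 50 bases past the start, were available for 9 of the 10 members, and Gsdmd was not matched. Among members not shown, kappaB-type matches numbered 5 in each window of Casp4, some overlapping, 4 in that of Ninj1 and 1 in each window of Nlrp3. The second window of Nlrp3 also held ACGTG. Those of Pycard and Casp8 held none of the 4 motifs. Across 32851 such windows of the mouse genome, 50.8% held the kappaB-type motif, 19.6% held ACGTG, 3.44% the interferon type and 8.3% the STAT type. The windows of Mlkl and Ripk3 held 7 and 10 CpG pairs, between the 3 to 5 of Nlrp3, Pycard, Casp1, Casp4 and Casp8 and the 22 to 37 of Ripk1 and Ninj1. A match describes letters in this window only, and binding was not measured.

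RNA of the caspase at the branch point changed little. Casp8, which starts apoptosis and restrains necroptosis (ENSMUSG00000026029, chromosome 1, 58795374 to 58847503, plus strand), was at 18.47, 18.81 and 19.10 FPKM in untreated and 21.87, 19.85 and 20.04 FPKM in GB2-treated cells. All treated libraries were higher, replicate 1 most. The change was 0.15 ± 0.05 (SE), with a 95% interval of 0.03 to 0.27 and an edgeR FDR of 0.0366. The threshold was passed in only 5 of 14 alternatives, with FDR values from 0.0058 to 0.16, and log2 changes from 0.08 to 0.30. Leaving out GB2-treated replicate 1 gave 0.08 with an FDR of 0.153, and leaving out replicates 2 and 3 gave 0.30 with an FDR of 0.0058.

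The partners of these proteins at death receptors were counted over 21 genes, all of which were tested. Of them 3 were called higher and 2 lower, while 8 were higher and 9 lower by the FDR alone, with a median change of -0.14. Over all tested genes the shares were 13.4% and 7.73% called and 26.8% and 29.6% by the FDR alone, so the calls lie close to the background. Fadd, the adaptor that brings caspase-8 to death receptors, fell from 3.93, 4.67 and 3.86 FPKM to 1.59, 1.32 and 1.37 FPKM (log2 -1.52 ± 0.13 SE, edgeR FDR 3.89e-05). Fadd shares 6.12% of its exonic bases with an antisense gene. Otulin, which removes linear ubiquitin chains from the receptor complex, fell from 23.14, 23.53 and 22.95 FPKM to 10.91, 10.60 and 10.64 FPKM (log2 -1.10 ± 0.05, edgeR FDR 1.63e-06). Both stood clear of the untreated libraries in every treated library.

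The genes called higher in this group were Tnfaip3, Birc3 and Zbp1. Tnfaip3 encodes A20, a ubiquitin editor that limits NF-kappaB and RIPK1 signalling, and it rose from 5.95, 5.59 and 5.09 FPKM to 13.92, 14.23 and 14.83 FPKM (log2 1.39 ± 0.06 SE, edgeR FDR 1.79e-06). Birc3, a ubiquitin ligase that modifies RIPK1, rose from 16.26, 15.44 and 16.21 FPKM to 36.96, 35.12 and 37.60 FPKM (log2 1.21 ± 0.04, edgeR FDR 3.23e-07). The calls of Fadd, Otulin, Tnfaip3 and Birc3 held in all 14 alternatives. Zbp1, a sensor of Z-form nucleic acids that engages RIPK3 directly, was low throughout, at 0.30, 0.15 and 0.14 FPKM untreated and 0.76, 0.44 and 0.55 FPKM treated. Its rise of 1.54 ± 0.38 (edgeR FDR 0.0113) lost the call without untreated replicate 2, without untreated replicate 3 and with limma on log2(FPKM + 1). Over the alternatives its change ranged from 0.40 to 1.99 and its FDR reached 0.0694. Cflar, whose product c-FLIP pairs with caspase-8, shifted from 14.85, 14.20 and 15.38 FPKM to 23.68, 23.82 and 25.65 FPKM (log2 0.74, edgeR FDR 5.45e-06).

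**Figure D3:**
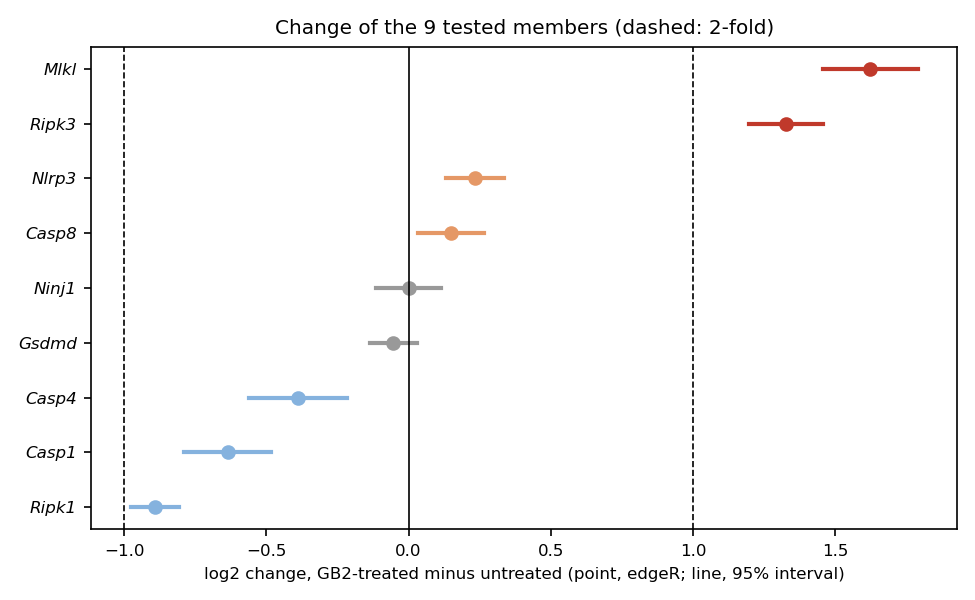
Log2 change, GB2-treated minus untreated, of the 9 tested members (points, edgeR estimates; lines, 95% intervals), with dashed lines at 2-fold. The intervals of Mlkl (1.46 to 1.79) and Ripk3 (1.20 to 1.46) lie beyond 2-fold, that of Ripk1 (-0.98 to -0.81) just within it, and those of Gsdmd and Ninj1 include 0.

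Among inflammasome genes, the sensor Nlrp3 was slightly higher. Nlrp3, whose protein responds to loss of cell potassium (ENSMUSG00000032691, chromosome 11, 59541568 to 59566956, plus strand), was at 30.91, 30.33 and 32.15 FPKM in untreated and 37.64, 35.09 and 35.62 FPKM in GB2-treated cells. The groups did not overlap, with means of 31.1 ± 0.93 and 36.1 ± 1.35 FPKM (SD). The shift was 0.23 ± 0.04 (SE), with a 95% interval of 0.13 to 0.33 and an edgeR FDR of 0.00288, and the FDR threshold was passed in all 14 alternatives.

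RNA of the adaptor was close to absent in both groups. Pycard (ENSMUSG00000030793, chromosome 7, 127989708 to 127993867, minus strand) was counted 10, 0 and 0 times in untreated libraries and 3, 101 and 55 times in GB2-treated libraries, which is 0.03, 0.00 and 0.00 against 0.01, 0.40 and 0.22 FPKM. A count of 0 allows up to 0.0391 and 0.0388 CPM (counts scaled to the library total) in untreated replicates 2 and 3, counting error only. The counts in the treated group came from replicates 2 and 3, the libraries with 591 and 573 FPKM of hepatocyte markers, and replicate 1 lay within the untreated range. The part of this tissue signal in the Pycard counts was not tested. Without the expression filter the change was 4.17 ± 1.75 (SE), with a 95% interval of -0.04 to 8.37 and an edgeR FDR of 0.124. It was called in 1 of the 9 alternatives that gave a value, the one without GB2-treated replicate 1 (log2 4.74, FDR 0.00676). Pycard shares 12.8% of its exonic bases with Gm45205 on the other strand.

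Other sensors were mixed. Of 13 listed, 12 were in the table and 10 were tested, with 2 called higher, 1 called lower and a median of -0.29. Over all tested genes 13.4% were called higher and 7.73% lower. By the FDR alone 3 were higher and 5 lower, against 26.8% and 29.6% of all tested genes. Nlrc4, which with the NAIP proteins detects bacterial flagellin, fell from 2.44, 2.23 and 2.57 FPKM to 1.01, 1.27 and 1.28 FPKM (log2 -1.003 ± 0.13 SE, edgeR FDR 0.000429). It lies on the 2-fold threshold, being called in 7 of 14 alternatives and past the FDR in all 14. Naip2, a receptor for bacterial secretion-system proteins, shifted down from 14.98, 14.82 and 14.13 FPKM to 9.82, 9.19 and 9.89 FPKM (log2 -0.59, edgeR FDR 2e-05). Naip genes are close copies of each other, which makes the split of their reads uncertain. Aim2, the sensor of cytosolic DNA, shifted up from 22.92, 23.35 and 24.83 FPKM to 26.96, 27.57 and 27.99 FPKM (log2 0.23, edgeR FDR 0.00187).

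The 2 sensors called higher were barely expressed. Nlrp6, best known from intestinal epithelium, was at 0.09, 0.08 and 0.08 FPKM untreated and 0.10, 1.13 and 0.82 FPKM treated (log2 2.98 ± 0.75 SE, edgeR FDR 0.0119). With GB2-treated replicates 2 and 3 left out, its change was 0.39 with an FDR of 0.555. Nlrp12 was counted 4, 0 and 0 times against 10, 12 and 21 times (log2 3.52 ± 1.18, edgeR FDR 0.0371), and it was called in 4 of the 10 alternatives that gave a value.

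Of the 9 triggers and cofactors of inflammasomes, 8 were tested, with 1 called higher, 1 called lower and a median of -0.27. The shares called over all tested genes were 13.4% higher and 7.73% lower. Panx1, a membrane channel for ATP that caspases open, showed the largest fall among all genes listed here. It went from 2.54, 2.61 and 2.52 FPKM to 0.47, 0.46 and 0.42 FPKM, 5.58-fold lower (log2 -2.48 ± 0.11 SE, edgeR FDR 1.74e-06), and was called in all 14 alternatives. Nek7, the kinase that bridges NLRP3 subunits, shifted from 13.52, 14.27 and 15.58 FPKM to 10.25, 10.15 and 11.10 FPKM (log2 -0.44, edgeR FDR 0.000299). P2rx7, the ATP-gated channel upstream of NLRP3, measured 12.83, 12.51 and 12.72 FPKM against 12.32, 11.44 and 11.66 FPKM and missed the threshold (log2 -0.09, edgeR FDR 0.117). Gbp5, a guanylate-binding protein, was called higher at 0.02, 0.02 and 0.00 FPKM untreated and 0.08, 0.10 and 0.15 FPKM treated (log2 2.92 ± 0.93, edgeR FDR 0.0305), in 5 of 12 alternatives.

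Transcripts of the inflammatory caspases among the members, Casp1 and Casp4, were lower. Casp1, the protease of the inflammasome (ENSMUSG00000025888, chromosome 9, 5298508 to 5307290, plus strand), was at 16.49, 17.16 and 17.45 FPKM in untreated and 11.79, 9.83 and 10.87 FPKM in GB2-treated cells. The groups did not overlap, with means of 17.03 ± 0.492 and 10.8 ± 0.981 FPKM (SD). The shift was -0.64 ± 0.06 (SE), a level 1.55-fold lower (95% interval -0.79 to -0.48, edgeR FDR 0.000115), and was past the FDR in all 14 alternatives. Casp4, which binds bacterial lipopolysaccharide in the cytosol and lies next to Casp1 (ENSMUSG00000033538, chromosome 9, 5308828 to 5336783, plus strand), was at 11.49, 11.18 and 12.57 FPKM against 9.55, 7.90 and 9.15 FPKM. The shift was -0.39 ± 0.07 (95% interval -0.56 to -0.21, edgeR FDR 0.00313). With GB2-treated replicates 2 and 3 left out it was -0.22, with an FDR of 0.0698. The ratio of Nlrp3 to Casp1 was higher in each treated library, at 1.83 ± 0.0549 against 3.35 ± 0.198 (SD, n = 3, exact permutation p = 0.1, the smallest possible).

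Of 7 other caspases, 6 were tested, with 1 called higher and 0 lower, against 13.4% and 7.73% of all tested genes. Casp6, an executioner caspase, was called higher at 2.47, 2.30 and 2.70 FPKM untreated and 4.94, 4.94 and 5.70 FPKM treated (log2 1.08 ± 0.08 SE, edgeR FDR 2.18e-05), in 13 of 14 alternatives. Casp9, the initiator activated through mitochondria, shifted from 9.62, 10.11 and 9.39 FPKM to 5.23, 5.22 and 5.48 FPKM (log2 -0.85, edgeR FDR 4.49e-06). Casp6 and Casp9 thus moved in opposite directions, each in all 3 treated libraries.

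Transcripts of the proteins that open the membrane in pyroptosis showed no change past the threshold. Gsdmd (ENSMUSG00000022575, chromosome 15, 75862327 to 75867408, plus strand) measured 24.34, 23.81 and 24.30 FPKM in untreated and 23.27, 22.50 and 23.19 FPKM in GB2-treated cells. These FPKM values did not overlap, yet the fitted change was -0.05 ± 0.04 (SE), with a 95% interval of -0.14 to 0.03 and an edgeR FDR of 0.232. Ninj1, the rupture protein (ENSMUSG00000037966, chromosome 13, 49187485 to 49196244, plus strand), measured 69.59, 71.20 and 65.74 FPKM against 70.26, 64.06 and 69.88 FPKM. The groups overlapped, and the change was 0.00 ± 0.05 (95% interval -0.11 to 0.11, edgeR FDR 0.995). Neither gene passed the threshold in any of the 14 alternatives.

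Of 10 other gasdermins and Ninj2, 8 were in the table and 2 were tested, with 0 calls by edgeR, 0 below the FDR threshold and 2 at an unadjusted p below 0.05. The DESeq2 Wald test called 1 higher, Gsdma, at 0.04, 0.00 and 0.00 FPKM untreated and 0.10, 0.11 and 0.10 FPKM treated, and both limma tests called 0. Gsdme, another pore-forming gasdermin, was at 1.12, 0.97 and 0.97 FPKM untreated and 0.65, 0.84 and 0.90 FPKM treated (log2 -0.34 ± 0.14 SE, edgeR FDR 0.0707). With GB2-treated replicates 2 and 3 left out, its change was -0.58 with an FDR of 0.0095. Gsdma2, known from skin and stomach epithelium of the mouse, was counted 0, 0 and 0 times in untreated libraries and 4, 589 and 819 times in GB2-treated libraries, and did not pass the filter. Its counts came from the same replicates 2 and 3 as the tissue markers, whose epithelial markers summed to 49.2 and 58.5 FPKM against at most 1.39 FPKM in the other 4 libraries. The markers in that sum differed. In replicates 2 and 3, Krt8 was at 18.67 and 24.68 FPKM and Krt19 at 13.89 and 21.86 FPKM. Krt5 was at 0.04 and 0.00 FPKM and Krt14 at 0.06 and 0.00 FPKM in the same libraries. The part of the tissue signal in the Gsdma2 counts was not tested.

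**Figure D4:**
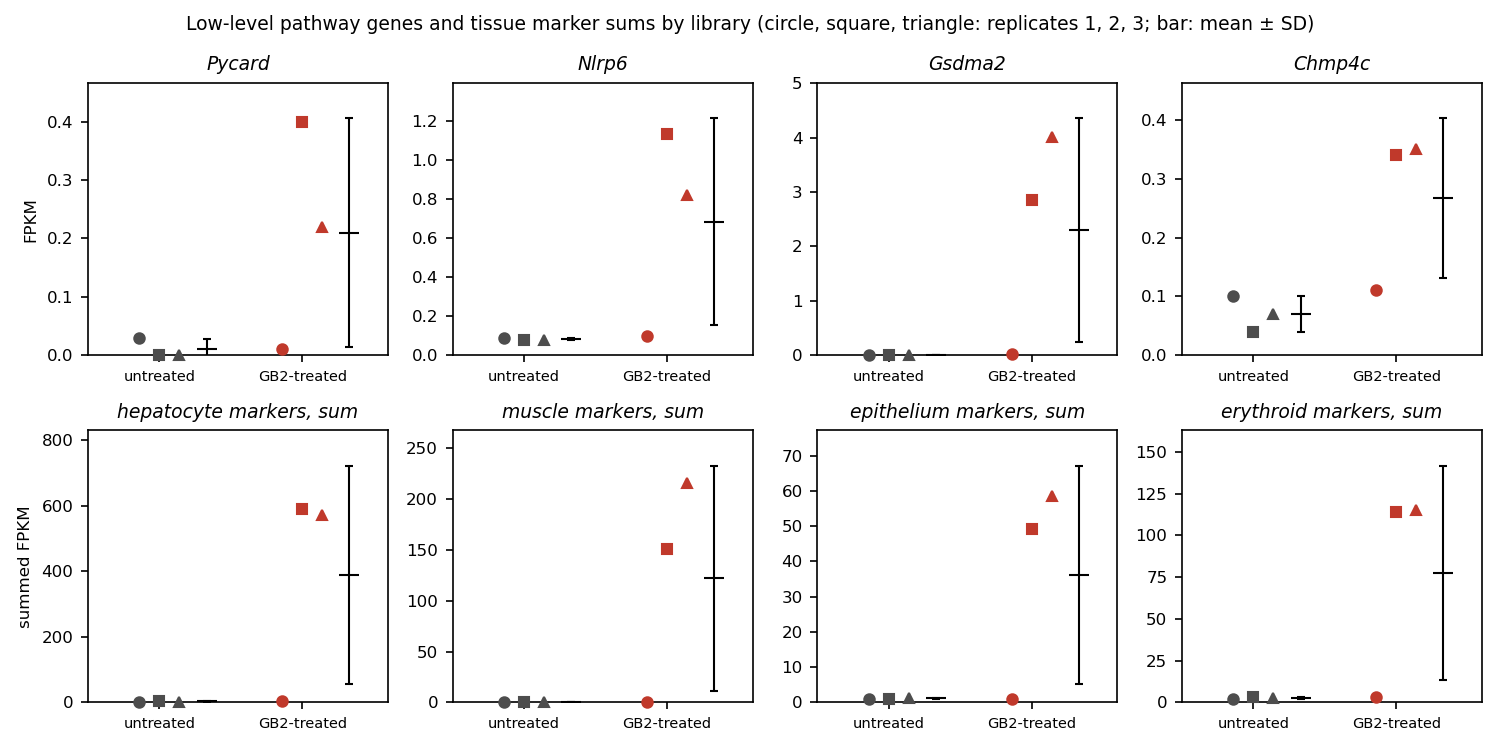
Top, FPKM of 4 pathway genes of low level, and bottom, summed FPKM of markers of hepatocytes, muscle, epithelium and erythroid cells, by library (axes from 0), with bars for the mean ± SD. In every panel GB2-treated replicates 2 and 3 lie above the other 4 libraries, as for Pycard at 0.40 and 0.22 FPKM against at most 0.03 FPKM.

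Of the 3 interleukins released by dying cells, all tested, Il1b and Il1a were called higher and 0 were called lower. Over all tested genes 13.4% were called higher and 7.73% lower. Il1b rose from 15.33, 14.74 and 13.98 FPKM to 302.48, 245.51 and 267.34 FPKM (log2 4.23 ± 0.09 SE, edgeR FDR 6.91e-08). Il1a, whose precursor is active without caspase-1, rose from 22.62, 19.87 and 20.65 FPKM to 257.94, 242.07 and 251.05 FPKM (log2 3.59 ± 0.06, edgeR FDR 3.75e-08). Il18, the other substrate of caspase-1, overlapped between the groups, at 5.17, 6.57 and 5.00 FPKM against 5.44, 6.27 and 5.34 FPKM (log2 0.04, edgeR FDR 0.836). The transcript of pro-interleukin-1β was thus higher while that of the protease that matures it was 1.55-fold lower, and protein and cleavage were not measured.

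Across all 8 other lists, 70 of 83 genes were tested. Of these, 11 were called higher and 4 lower, against 13.4% and 7.73% of all tested genes. By the FDR alone 21 were higher and 31 lower, against 26.8% and 29.6% of all tested genes. The median change was -0.16, beside 0.01 for all tested genes.

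**Figure D5:**
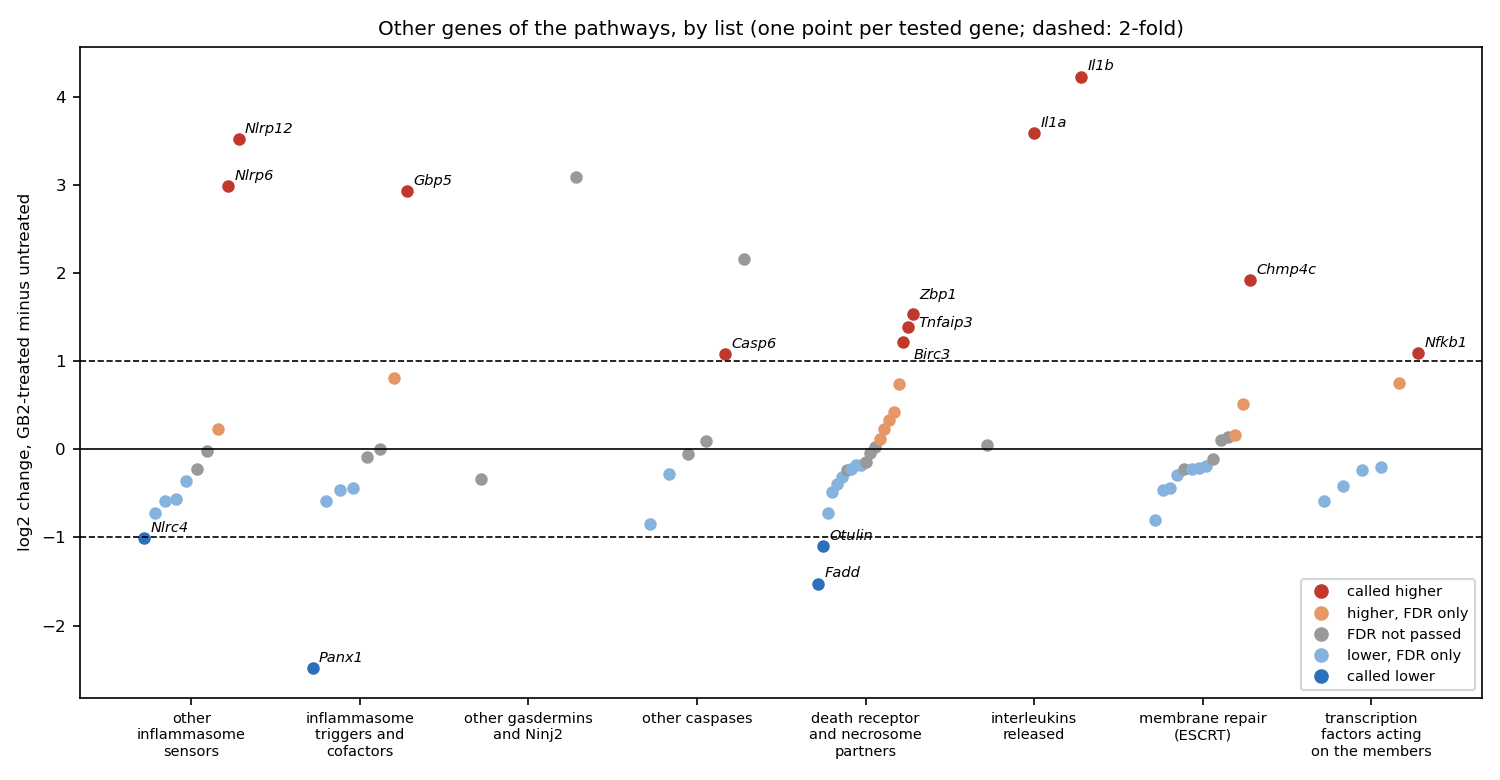
Log2 change, GB2-treated minus untreated (edgeR), of 70 tested pathway genes in 8 lists, 1 point per gene, with dashed lines at 2-fold and names for called genes. Il1b (4.23) and Il1a (3.59) lie highest and Panx1 (-2.48) lowest, and every list with more than 3 tested genes holds points on both sides of 0.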

How the data were processed

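RNA of RAW264.7 cells was analysed in 3 untreated and 3 GB2-treated libraries, grouped by the sample labels. Poly(A) RNA was made into stranded (dUTP) paired-end libraries. Per the submitters' notes, the tools were cutadapt (1.9), HISAT2 (2.2.1) and StringTie (2.1.6), besides DESeq2 and edgeR, with mouse build mm10. What each did, which annotation and strand setting were used and how reads were counted is not given in the sources used here. Estimated counts (already whole, used as they were) and FPKM values were deposited by the authors. Low counts favour multiples of 4, as in the first untreated library (952 genes at 4, against 397 at 3 and 252 at 5). No pair of libraries agreed within sampling noise (chi-square of at least 13.4 for each degree of freedom). The study calls the replicates biological, and p-values here reflect only how far these libraries differ from each other.

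The main test was edgeR 4.0.16 in R 4.3.3 (quasi-likelihood, TMM, default expression filter, no covariate), with Benjamini-Hochberg FDR over 17124 genes. The script was tested on simulated data. Alternatives were DESeq2 1.42.0 (size factors, Wald test), no filter, limma 3.58.1 on log2(FPKM + 1) and log2(FPKM + 0.1) for genes averaging 0.1 FPKM or more, counts divided by 4, a replicate block, leaving out each library, and leaving out GB2-treated replicates 2 and 3 together. The members, lists, motifs and marker genes were chosen with earlier results of these data known. The text names all members and, from each other list, every called gene up to 6. Where none was called, the rule took the 2 of highest FPKM. Naip2, Aim2, Nek7, P2rx7, Cflar, Casp9, Gsdma, Il18, Irf8, Rela, Chmp1b and Chmp2a were named after their values were seen. Some listed genes are not reported here by name. Identifiers and positions are those of the table. The start or end of Casp1 and Ripk1 differs from GENCODE M21. Promoters came from RefSeq (GRCm38.p6).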

Additional observations from a re-analysis of the deposited data

How the results depend on the processing

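Of the 14 alternatives, limma on log2(FPKM + 1) moved the counts most, with 1231 genes called against 3624 and 8 of the other pathway genes against 15. Leaving out 1 library gave 2705 to 5258 genes called over all genes, 10 to 18 other pathway genes, and 2 to 3 members, the third being Pycard. The change of Gsdmd turned to 0.0067 with counts divided by 4 and to 0.029 with only GB2-treated replicate 1 kept. The change of Ninj1 turned to -0.0305 without the expression filter, and to -0.0166 and -0.0168 with limma at pseudocounts of 1 and 0.1, and it lay between -0.059 and 0.0578 with 1 library left out. Neither gene passed the FDR threshold under any of these settings. Without the filter the median of all genes was 0.18 in place of 0.01.

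Deviations of same-numbered libraries correlated at 0.0209, 0.0499 and 0.0143, above the -0.0296 to 0.0091 of differently numbered libraries. With 3 libraries a group, values this small cannot decide whether the libraries were paired. With the replicate block, 3040 genes were called, with 2 members called and 6 past the FDR threshold. Casp8 was the one lost (log2 0.15, FDR 0.0776).

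Several limits bear on the members. With 3 libraries a group, exact tests of single values cannot go below p = 0.1. Counts of Pycard are few. With 1 treated library kept, the spread comes from the untreated libraries alone, and the lone library is assumed to vary like them.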

Other observations

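Membrane repair by the ESCRT machinery, which removes pieces of plasma membrane damaged by gasdermin D or MLKL, was measured through 14 genes, all tested. Of these 1 was called higher and 0 lower by edgeR and by the DESeq2 Wald test, and 0 by limma. At an unadjusted edgeR p below 0.05, 5 were higher and 7 lower, 0 of the lower ones by 2-fold. In all, 3 were higher and 7 lower by the FDR alone, against 26.8% and 29.6% of all tested genes. Over all tested genes 13.4% were called higher and 7.73% lower by edgeR. The median change of the 14 genes was -0.20. Chmp4c, the gene called, was at 0.10, 0.04 and 0.07 FPKM untreated and 0.11, 0.34 and 0.35 FPKM treated (log2 1.92 ± 0.51 SE, edgeR FDR 0.0154). With GB2-treated replicates 2 and 3 left out it gave 0.71 with an FDR of 0.286. Among abundant subunits, Chmp2a shifted up from 69.20, 70.31 and 70.88 FPKM to 107.61, 91.83 and 98.39 FPKM (log2 0.52, edgeR FDR 0.00017). Chmp1b shifted down from 41.33, 40.71 and 44.99 FPKM to 24.69, 22.14 and 25.04 FPKM (log2 -0.80, edgeR FDR 1.08e-05), and it shares 24% of its exonic bases with an antisense gene.

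All 6 transcription factors known to act on genes of these pathways passed the FDR threshold, 2 higher and 4 lower, with a median of -0.22. The same threshold was passed by 56.4% of all tested genes. Nfkb1, the precursor of NF-kappaB p50, rose from 10.25, 10.92 and 10.50 FPKM to 22.75, 21.60 and 22.30 FPKM (log2 1.09 ± 0.04 SE, edgeR FDR 8.81e-07), and was called in all 14 alternatives. Irf8, a macrophage lineage factor, shifted from 16.19, 17.16 and 16.85 FPKM to 28.25, 27.28 and 27.75 FPKM (log2 0.75, edgeR FDR 3.79e-06). Rela, the partner of p50, shifted the other way, from 26.41, 26.45 and 22.73 FPKM to 17.91, 15.02 and 16.74 FPKM (log2 -0.59, edgeR FDR 0.000653).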
